A study of Mus musculus with 6 samples.

Results

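The heat shock factors and small heat shock proteins described here are 10 genes of the testis: Hsf1, Hsf2 and Hsf5 among the factors, Hspb1, Hspb6, Hspb8, Hspb9, Hspb11 and Cryab among the small proteins, and the co-chaperone Bag3. They were chosen by name from the deposited table of 44065 gene models, and each of the 10 names matched 1 row. The table holds FPKM values (fragments per kilobase of gene model, scaled by 1 total per library), which were measured on total RNA after depletion of ribosomal RNA. The testes came from male C57BL/6 mice, aged 6 weeks when the exposure of 10 weeks started: 3 animals were sedentary (ST) and 3 were controls (CT), with 1 library each, and the labels call them biological replicates. Between 28495596 and 38148228 reads were recovered per library. The labels give no genotype, transgene or drug for either group, and do not say how activity was limited. Since the study's title links sedentary behaviour to testicular thermoregulation, the question here is whether the heat shock genes differ between the groups.

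Heat shock factors are transcription factors that bind heat shock elements, arrays of inverted GAA units in promoters. HSF1 is held inactive in unstressed cells and forms trimers when proteins misfold. HSF2 works with it and is abundant in germ cells, and HSF5 is a germ cell factor needed for meiosis in the mouse. Small heat shock proteins share an alpha-crystallin domain and hold unfolding proteins in a state from which HSP70 can refold them. BAG3 links HSP70 to HSPB8 and so passes damaged proteins to autophagy. The testis is kept cooler than the body, and its germ cells are known to be sensitive to heat.

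The 10 genes spanned a wide range of expression. Hspb9, a small heat shock protein known for its testis expression, averaged 1071 FPKM over the 6 libraries and ranked 21 among all gene models. Hsf5 followed at 64.5 FPKM. Hsf2, Hsf1 and Bag3 averaged 18.4, 17.7 and 17.6 FPKM, and their ranges over the libraries overlapped, so their order was not separated. Below them came Hspb6 at 12.1, Hspb11 at 4.99, Cryab at 1.88, Hspb1 at 0.747 and Hspb8 at 0.324 FPKM, and no range from Bag3 down to Hspb8 overlapped that of its neighbour, although the highest Hspb6 value lay above the lowest of Hsf1 and of Hsf2. The reads behind these values ran from 21670 to 30507 per library for Hspb9, from 17 to 39 for Hspb1 and from 10 to 29 for Hspb8. The Hspb1 values cover only the gene model of that name, and a second model lies inside it. With both models summed, Hspb1 ran from 0.996 to 2.23 FPKM and overlapped Cryab, which ran from 1.47 to 2.42 FPKM.

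**Figure D1:**
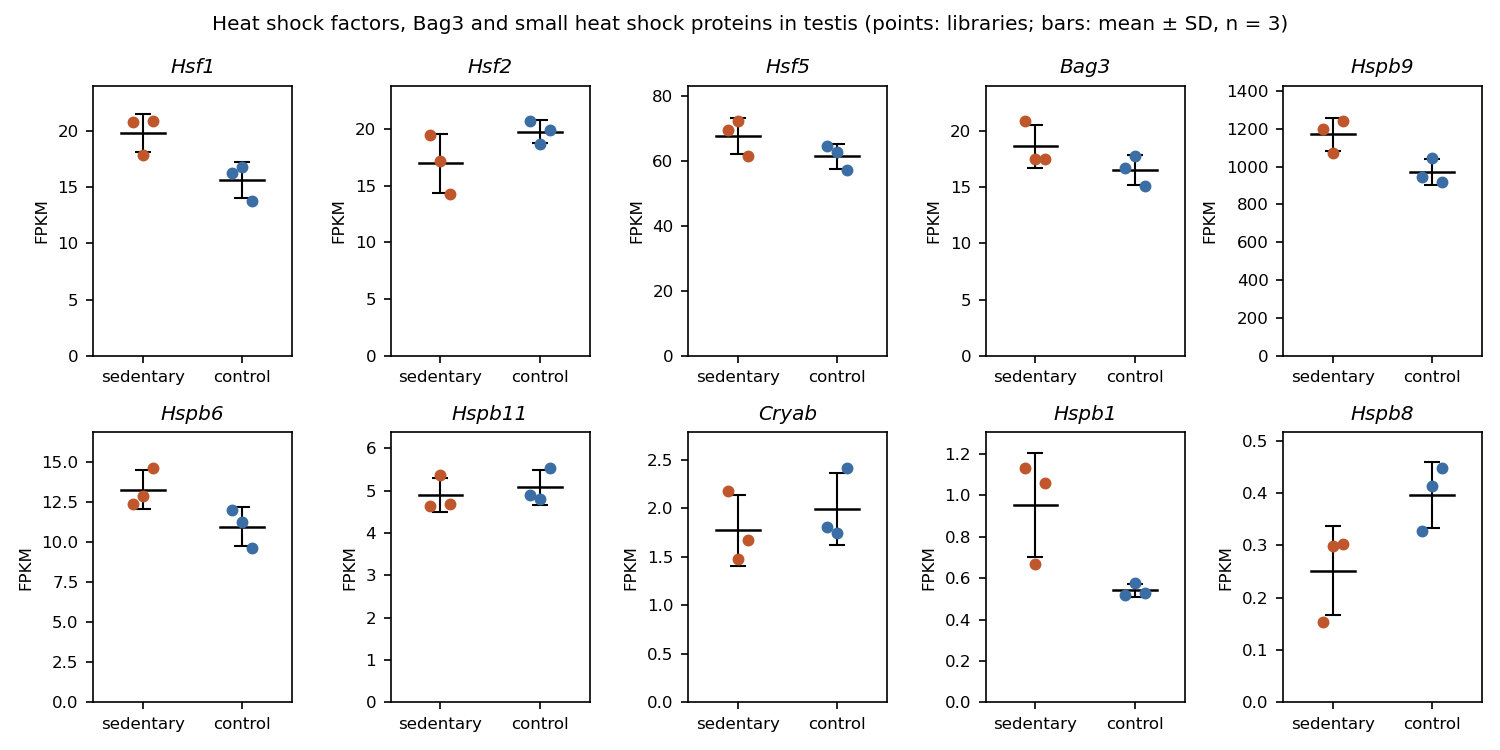
FPKM of each of the 10 genes in the sedentary (left) and control (right) testes, with a separate linear axis from 0 for each gene; points are libraries, bars the mean ± SD (n = 3). In Hsf1, Hspb9, Hspb6 and Hspb1 all sedentary points lie above all control points, and in Hspb8 all lie below.

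Promoter sequence was available for 8 of the 10 genes, from RefSeq on GRCm38.p6, as windows of 300 bases from 250 before to 50 after an annotated start. The heat shock element was planned as 3 alternating inverted units, GAANNTTCNNGAA or TTCNNGAANNTTC, searched on both strands. This motif was in 0 of the 8 genes, against 0.662% of the 27025 genes with a promoter. The looser alternative was 2 inverted units, GAANNTTC or TTCNNGAA, which the 3-unit motif contains. Of the 8 genes, 5 held the 2-unit motif (Hsf5, Hspb1, Hspb6 in 1 of its 2 windows, Hspb8 and Bag3), against 17.0% of all genes with a promoter. Of 25 heat-inducible genes with a promoter 10 held the 2-unit and 4 the 3-unit motif (Hsph1, Hspd1, Hspe1 and Chordc1, named after the search because the count is small). The windows of Hspb1, Hspb8 and Bag3 are shown because Hspb1 and Hspb8 were the members with the widest relative gap between the groups, in opposite directions, and Bag3 codes for the partner of HSPB8. Hspb9, the most abundant member, is shown as one with no match. Capitals mark the 2-unit motif. The windows are chr5:135887669-135887968 on the plus strand for Hspb1, chr5:116422815-116423114 on the minus strand for Hspb8, chr7:128523333-128523632 on the plus strand for Bag3 and chr11:100713679-100713978 on the plus strand for Hspb9.
Hspb1: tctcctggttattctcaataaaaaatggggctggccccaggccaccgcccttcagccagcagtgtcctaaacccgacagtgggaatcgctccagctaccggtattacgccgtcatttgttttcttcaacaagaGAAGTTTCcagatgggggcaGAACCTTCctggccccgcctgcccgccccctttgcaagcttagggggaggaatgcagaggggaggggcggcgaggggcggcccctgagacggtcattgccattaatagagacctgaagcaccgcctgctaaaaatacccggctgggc
Hspb8: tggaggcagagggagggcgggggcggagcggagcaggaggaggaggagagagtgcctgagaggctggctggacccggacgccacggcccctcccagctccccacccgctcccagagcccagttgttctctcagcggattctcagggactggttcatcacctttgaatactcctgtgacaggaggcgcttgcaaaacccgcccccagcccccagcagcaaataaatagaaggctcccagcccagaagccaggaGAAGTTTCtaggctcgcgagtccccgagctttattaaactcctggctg
Bag3: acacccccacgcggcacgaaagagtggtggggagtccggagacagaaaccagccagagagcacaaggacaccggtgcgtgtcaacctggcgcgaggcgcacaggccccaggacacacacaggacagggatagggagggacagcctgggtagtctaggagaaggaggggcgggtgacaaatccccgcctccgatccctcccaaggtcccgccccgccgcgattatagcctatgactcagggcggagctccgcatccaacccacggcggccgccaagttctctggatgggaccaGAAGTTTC
Hspb9: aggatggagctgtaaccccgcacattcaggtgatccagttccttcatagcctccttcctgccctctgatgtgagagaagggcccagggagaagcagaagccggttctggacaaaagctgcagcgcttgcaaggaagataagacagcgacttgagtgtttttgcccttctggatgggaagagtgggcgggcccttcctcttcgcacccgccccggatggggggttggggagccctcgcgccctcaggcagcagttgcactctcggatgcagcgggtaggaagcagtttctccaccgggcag
Hspb1 carried 2 matches, the first at -117 from the start. The single match of Hspb8 lay just after its start and that of Bag3 at the downstream end of its window. A match is a stretch of letters and does not show binding.

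Each gene was tested with limma on log2(FPKM + 0.5), two-sided, in 1 fit over the 19201 genes that reached 0.5 FPKM in 3 or more of the 6 libraries. P-values were adjusted over all of them by the Benjamini-Hochberg method, with 0.05 as the threshold, and the added 0.5 makes fold changes of weakly expressed genes look smaller. A second fit, limma's voom, used whole reads recovered from the FPKM values. Of the 10 genes 9 passed the filter and Hspb8 did not. On FPKM 0 of the 9 passed the threshold, where 0.026% of all tested genes did, all lower. On the reads 0 of the 9 passed, where 1.44% of all tested genes did, 0.318% higher and 1.12% lower. At an unadjusted p under 0.05 on FPKM there were 4 of the 9, all higher (Hsf1, Hspb1, Hspb6 and Hspb9), against 17.4% of all tested genes, 10.1% higher and 7.26% lower. On the reads there were also 4 of the 9, with Hsf1, Hspb6 and Hspb9 higher and Hsf2 lower, against 20.2% of all tested genes, 10.7% higher and 9.58% lower. The 3 sedentary values lay above the 3 control values in 4 of the 9, against 13.7% of all tested genes, and below them in 0 of the 9, against 10.8%. The share in either direction was 24.5% of all tested genes. Over the 9 genes 6 fold changes lay above 0 and 3 below, with a median of 0.17 on the log2 scale beside 0.01 for all tested genes. In whole tissue, fewer cells of a type and less RNA per cell cannot be told apart.

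Among the factors, Hsf1 was higher in 3 of 3 sedentary testes and Hsf2 lower in 2 of 3, and neither passed the threshold. Hsf1 (chromosome 15, 79418895 to 79443126; positions of gene models are those of the authors' table, whose build the sources do not settle) stood at 20.8, 17.9 and 20.9 FPKM in sedentary replicates 1, 2 and 3, against 16.3, 16.8 and 13.8 FPKM in control replicates 1, 2 and 3. The groups did not overlap. Its means were 19.9 ± 1.69 in sedentary and 15.6 ± 1.63 FPKM in control testes (SD, n = 3 each). This gave a log2 fold change of 0.34 (SE 0.10), whose 95% confidence interval ran from 0.10 to 0.57. Adjusted p-values were 0.207 (limma, FPKM) and 0.0849 (voom, reads). The log2 fold change was smaller under other scalings. It was 0.23 with the FPKM divided by each library's sum (limma adjusted p = 0.251) and 0.28 under quantile normalization (limma adjusted p = 0.271). With summed reads as library sizes it was 0.27 (voom adjusted p = 0.156). Without sedentary replicate 2 Hsf1 passed on the reads, at 0.42 on the log2 scale (voom adjusted p = 0.0435). In that fit 779 of the 19201 tested genes passed, against 277 with all libraries. Without any other library Hsf1 did not pass on the reads, with voom adjusted p from 0.0526 without control replicate 2 to 0.333 without control replicate 3, where the fold change was 0.26.

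Hsf2 (chromosome 10, 58635461 to 58662194) stood at 19.5, 17.2 and 14.3 FPKM in the sedentary testes, against 20.7, 18.7 and 19.9 FPKM in the control testes. Sedentary replicates 2 and 3 lay below every control library and sedentary replicate 1 lay among them. Its fold change on the log2 scale was -0.22 (SE 0.11, limma adjusted p = 0.341). Without sedentary replicate 3 it was -0.11. With the FPKM divided by each library's sum it was -0.33 (limma adjusted p = 0.206), and all 3 sedentary values then lay below all 3 control values. The share of all tested genes with groups apart was not counted under this scaling.

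Within each library the ratio of Hsf1 to Hsf2, which a single scaling factor per library cannot change, was 1.07, 1.04 and 1.46 in the sedentary testes, against 0.789, 0.900 and 0.693 in the control testes. As deposited, Hsf1 stood above Hsf2 in each sedentary library and below it in each control library. That order did not hold in sedentary replicate 1 once each library's trend with GC content and length was removed, where the log2 difference of Hsf1 and Hsf2 was -0.06. This pair was picked after the values were seen, and the ratio is given with no test.

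Hsf5 (chromosome 11, 91949849 to 91992066) stood at 69.3, 72.2 and 61.5 FPKM in the sedentary testes, against 64.4, 62.6 and 57.1 FPKM in the control testes, with overlap. Its log2 fold change was 0.14 with a 95% confidence interval from -0.06 to 0.33 (limma adjusted p = 0.424). Over all settings tried it lay between 0.02 and 0.21.

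Of the small heat shock proteins, Hspb9 and Hspb6 stood higher in all sedentary libraries. Hspb9 (chromosome 11, 106693804 to 106694529) had 1200.4, 1073 and 1240.0 FPKM in the sedentary testes, against 945, 1047 and 921 FPKM in the control testes. Sedentary replicate 2 and control replicate 2 lay close to each other, and the groups did not overlap. The means were 1171 ± 87.2 in sedentary and 971 ± 67.3 FPKM in control testes (SD, n = 3). The log2 fold change was 0.27 (SE 0.09). Adjusted p-values were 0.221 (limma, FPKM) and 0.0849 (voom, reads). It passed on the reads without sedentary replicate 2 (voom adjusted p = 0.0458) or without control replicate 2 (0.0357). In those fits 779 and 1058 of the 19201 tested genes passed, against 277 with all libraries. Without any other library Hspb9 did not pass, with voom adjusted p from 0.208 to 0.312. Under quantile normalization its log2 fold change was 0.05, and with the FPKM divided by each library's sum it was 0.15. Under both settings the groups overlapped. With summed reads as library sizes the log2 fold change of Hspb9 was 0.19 (voom adjusted p = 0.120). The summed markers of elongating spermatids were also higher in 3 of 3 sedentary libraries, at 30827 ± 1231 in sedentary and 25220 ± 2118 FPKM in control testes (SD, n = 3). Their part in the value of Hspb9 was not tested.

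Hspb6, a small heat shock protein known from smooth and heart muscle (chromosome 7, 30515060 to 30518328), stood at 12.4, 12.9 and 14.7 FPKM in the sedentary testes, against 12.0, 11.3 and 9.61 FPKM in the control testes. The lowest sedentary value lay just above the highest control value. The log2 fold change was 0.27 (SE 0.11, limma adjusted p = 0.258), and without control replicate 3 it was 0.18. With the FPKM divided by each library's sum it was 0.16, and there and under quantile normalization the groups overlapped. Among the smooth muscle markers 11 of 12 had fold changes below 0, while the most abundant, Actg2, stood at 0.21 on the log2 scale. Their summed FPKM overlapped between the groups, and their part in the value of Hspb6 was not tested. The Hspb6 model overlaps Proser3 by 119 bases and Lin37 by 3 bases, both on the other strand, and whether strand was used in counting is not given in the sources used here.

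Hspb1, known as HSP25 in the mouse and among the best known heat-inducible small chaperones, had the largest relative difference among the 9 tested members, on few reads. It stood at 1.13, 0.667 and 1.06 FPKM in the sedentary testes, against 0.520, 0.579 and 0.526 FPKM in the control testes. Sedentary replicate 2 lay nearest to the controls and still above them. The means were 0.953 ± 0.251 in sedentary and 0.542 ± 0.0323 FPKM in control testes (SD, n = 3), a ratio of 1.76. The log2 fold change was 0.47 (SE 0.17) on the FPKM scale (limma adjusted p = 0.232) and 0.75 on the reads, with a 95% confidence interval from -0.0026 to 1.51 (voom adjusted p = 0.249). The reads numbered 39, 26 and 37 in the sedentary libraries, against 21, 17 and 18 in the control libraries.

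The deposited annotation splits the Hspb1 locus. Inside the Hspb1 model (MGP_C57BL6NJ_G0030623, chromosome 5 from 145720353 to 145725123, 1031 bases counted) lies a second model on the same strand, MGP_C57BL6NJ_G0036946 (145723192 to 145724990, 520 bases). It is typed as a pseudogene. The table describes both models as the HSPB1 protein, and of these models it lists the alpha-crystallin family domain for the inside one and not for the Hspb1 model. The inside model held 69, 68 and 80 reads in the sedentary libraries, against 47, 27 and 45 in the control libraries, more than the Hspb1 model in every library. Its means were 3.99 ± 0.541 in sedentary and 2.25 ± 0.397 FPKM in control testes (SD, n = 3). On the log2 scale the fold change was 0.71 (SE 0.14). Adjusted p-values were 0.199 (limma, FPKM) and 0.102 (voom, reads). How reads were divided between the models is not given in the sources used here, so each model's own level is uncertain.

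Summed as 1 locus, a choice made after the data were seen, the Hspb1 models held 108, 94 and 117 reads in the sedentary libraries, against 68, 44 and 63 in the control libraries. The summed level was 1.97 ± 0.327 in sedentary and 1.11 ± 0.115 FPKM in control testes (SD, n = 3), 1.77 times as high. The log2 fold change was 0.61 (SE 0.14) on the FPKM scale (limma adjusted p = 0.199) and 0.80 on the reads, with a 95% confidence interval from 0.31 to 1.28 (voom adjusted p = 0.0749). The sum was higher in 3 of 3 sedentary libraries and did not pass the threshold in either fit.

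**Figure D2:**
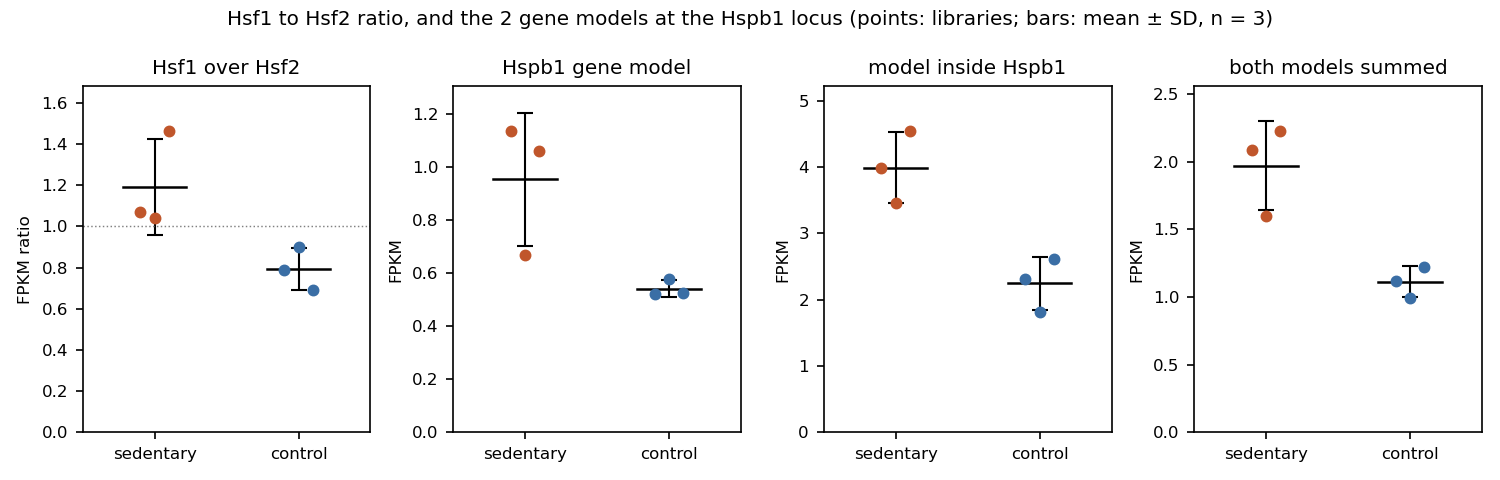
The ratio of Hsf1 to Hsf2 FPKM per library, and FPKM of the Hspb1 model, of the model inside it and of both summed, in sedentary (left) and control (right) testes; points are libraries, bars the mean ± SD (n = 3), and all axes start at 0. The ratio lies above 1 (dotted) in the sedentary and below 1 in the control libraries as deposited, though not in sedentary replicate 1 once the GC and length trends are removed, and each of the Hspb1 panels has its 3 sedentary points above its 3 control points.

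Of Bag3 and Hspb8, whose products act as a complex, neither passed the threshold. Bag3 (chromosome 7, 138144384 to 138171367) stood at 20.8, 17.5 and 17.5 FPKM in the sedentary testes, against 16.7, 17.7 and 15.1 FPKM in the control testes. Sedentary replicate 1 lay above all controls and the other two among them. Its log2 fold change was 0.17 (SE 0.10, limma adjusted p = 0.405), and 0.08 without sedentary replicate 1. Hspb8 (chromosome 5, 123955760 to 123972022) rested on few reads, with 10, 22 and 20 reads in the sedentary libraries, against 25, 23 and 29 in the control libraries. These gave 0.154, 0.298 and 0.303 FPKM in the sedentary testes, against 0.327, 0.414 and 0.448 FPKM in the control testes. The Hspb8 groups did not overlap, but the share of such genes was not counted below the filter. Without a filter on low values its log2 fold change was -0.26 on the FPKM scale (limma adjusted p = 0.439) and -0.66 on the reads, with a 95% confidence interval from -1.53 to 0.20 (voom adjusted p = 0.491, where 0.516% of all genes in that fit passed). That fit was added after the data were seen.

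Hspb11 and Cryab differed by less than the spread between replicates, and their groups overlapped. Hspb11 (chromosome 4, 111814087 to 111841436) codes for IFT25, a part of the transport machinery of cilia and sperm tails rather than a stress protein. It stood at 4.64, 5.37 and 4.68 FPKM in the sedentary testes, against 4.89, 4.80 and 5.55 FPKM in the control testes. Its log2 fold change was -0.05 with a 95% confidence interval from -0.28 to 0.18 (limma adjusted p = 0.835), and 0.01 without control replicate 3. Cryab (chromosome 9, 51035642 to 51039517), the alpha-B crystallin of lens and muscle, stood at 2.18, 1.47 and 1.67 FPKM in the sedentary testes, against 1.81, 1.75 and 2.42 FPKM in the control testes. Its log2 fold change was -0.13 with a 95% confidence interval from -0.50 to 0.23 (limma adjusted p = 0.689). It depended on single libraries, at -0.26 without sedentary replicate 1, -0.20 without control replicate 2, -0.04 without sedentary replicate 2 and -0.02 without control replicate 3.

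**Figure D3:**
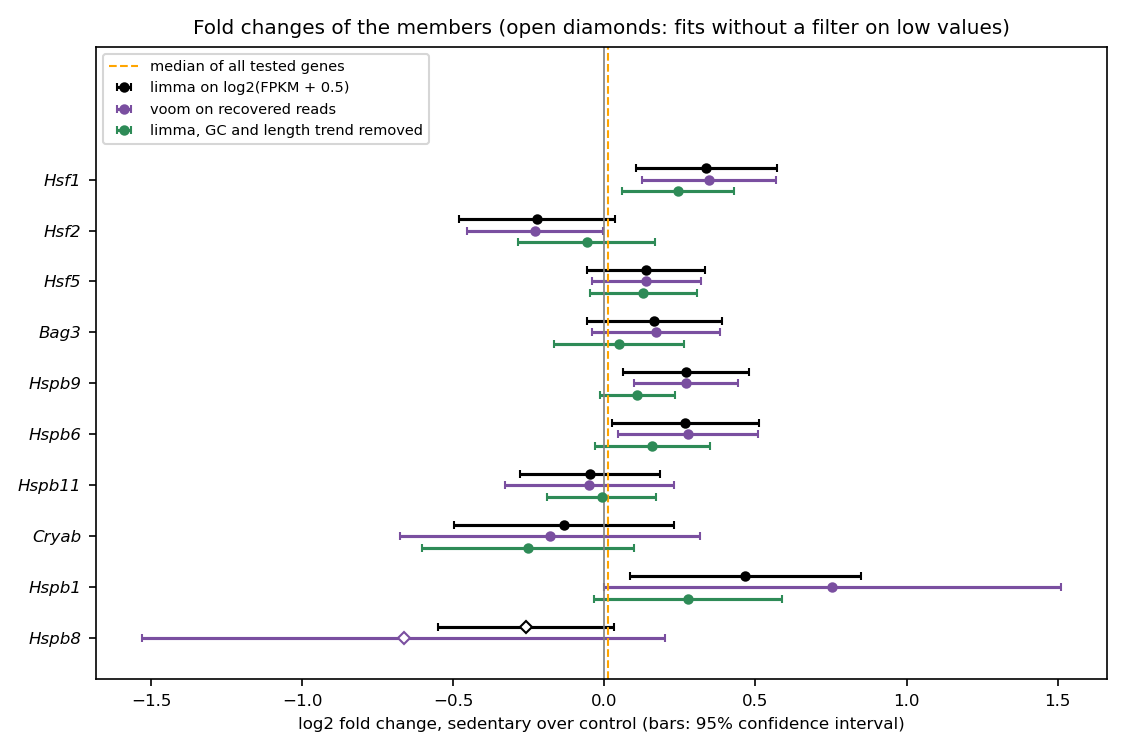
Log2 fold change of each gene, sedentary over control, with 95% confidence intervals from limma on log2(FPKM + 0.5), voom on the reads, and limma after removal of each library's trend with GC content and length; open diamonds are the fits of Hspb8 without a filter, and the dashed line is the median of all tested genes. The intervals of Hsf1 lie above 0 in all 3 fits, and those of Hspb9, Hspb6 and Hspb1 include 0 after the removal.

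Over the 75.5% of tested genes with a known GC content, fold changes moved with the GC content of the transcript. This share is under 80%, so the trend is a description and void as a check of all genes. The median log2 fold change of tested genes was -0.16 at a GC content of up to 40%, -0.01 between 45% and 50%, and 0.16 above 55%. The tested members followed the same order in part: Hsf2 had the lowest GC content, 36.2%, and the lowest fold change, and Hspb1 had the highest of both, at 61.7%. Each library's trend with GC content and length was then removed over these 14504 genes, which include all 9 tested members. After this the log2 fold change of Hsf2 was -0.06 in place of -0.22 and that of Hspb9 0.11 in place of 0.27. Those of Hspb6 and Bag3 were 0.16 and 0.05 in place of 0.27 and 0.17. Hsf1 stood at 0.24 and Hsf5 at 0.13. Hspb1 stood at 0.28, with a 95% confidence interval from -0.03 to 0.59. Cryab was farther from 0, at -0.25. Hsf1, Hspb1 and Hspb9 kept their groups apart after the removal and Hspb6 did not. The share of all genes with groups apart was not counted after the removal. The log2 difference of Hsf1 and Hsf2 was then -0.06, 0.12 and 0.24 in the sedentary libraries, against -0.19, -0.13 and -0.28 in the control libraries. The gap between the group means of that difference was 0.30 in place of 0.56.

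**Figure D4:**
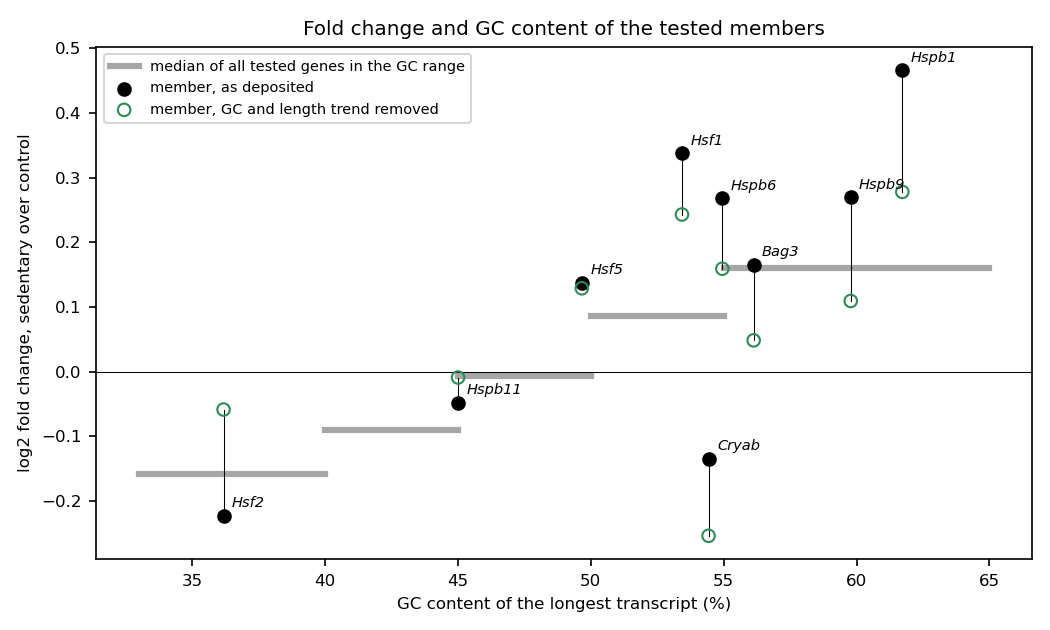
Log2 fold change, sedentary over control, against the GC content of the longest transcript for the 9 tested members, as deposited (filled) and after removal of each library's trend with GC content and length (open, joined by a line); grey bars are medians of all tested genes per GC range. Members of high GC content lie mostly above 0 and Hsf2, of low GC content, below, and the removal brings most of them closer to 0.

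The wider heat shock system gave no calls on FPKM. The lists were chosen with earlier results of these data known. Of 29 heat-inducible genes 23 matched the table by name and all 23 were tested: 0 passed the threshold in either fit, 13 fold changes lay above 0 and 10 below, and the median was 0.05 beside 0.01 for all tested genes. The 3 sedentary values lay above the 3 control values in 8 of the 23 and below them in 0, against 13.7% and 10.8% of all tested genes. Their 2 most abundant genes were Tcp1, a chaperonin subunit, at 290.7 ± 19.1 in sedentary and 285.0 ± 2.26 FPKM in control testes, and Fkbp4, a co-chaperone of HSP90, at 249.9 ± 9.47 in sedentary and 207.6 ± 18.1 FPKM in control testes (SD, n = 3). The log2 fold change of Fkbp4 was 0.27, with adjusted p-values of 0.208 (limma, FPKM) and 0.0849 (voom, reads). The following were picked after their values were seen, as widely used markers of heat shock. Hspa1b, an inducible HSP70, stood at 6.12, 4.45 and 5.70 FPKM in the sedentary testes, against 4.96, 6.50 and 5.26 FPKM in the control testes. The groups overlapped, with a log2 fold change of -0.04 (limma adjusted p = 0.909). Its near-identical copy Hspa1a was not analysed here, so its reads are uncertain. Hsph1, an HSP110 chaperone, had a log2 fold change of -0.11 and Dnajb1, an HSP40 co-chaperone, 0.25, with limma adjusted p of 0.553 and 0.207.

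Of 5 other small heat shock proteins 3 were tested, all above 0, and 0 passed in either fit. Odf1, a sperm tail protein also classed as HSPB10, stood at 2001 ± 151 in sedentary and 1670 ± 186 FPKM in control testes (SD, n = 3), with a log2 fold change of 0.26 (limma adjusted p = 0.264). Hspb7 stood at 14.3, 11.4 and 11.7 FPKM in the sedentary testes, against 10.7, 9.87 and 9.13 FPKM in the control testes, with a log2 fold change of 0.32 (limma adjusted p = 0.219). Of 10 other factors and regulators 8 were tested and 0 passed. Hsbp1, which binds HSF1 and holds it back, stood at 437.7 ± 6.49 in sedentary and 372.7 ± 19.1 FPKM in control testes (SD, n = 3), a log2 fold change of 0.23 (limma adjusted p = 0.207). Ywhae, a 14-3-3 protein, had a log2 fold change of 0.07.

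Of 20 genes of BAG3-HSPB8 assisted autophagy 17 were tested, 14 above 0 and 3 below, with a median of 0.12. On FPKM 0 passed, and on the reads 1 passed, lower, where 1.12% of all tested genes did. This was Flna, an actin crosslinker and a client of BAG3, at 3.46, 2.77 and 3.90 FPKM in the sedentary testes, against 4.82, 4.45 and 5.84 FPKM in the control testes. On the reads Flna fell, at -0.59 on the log2 scale (voom adjusted p = 0.0286), while on FPKM the change was -0.52 (limma adjusted p = 0.206). Without sedentary replicate 1 or 3, or control replicate 1 or 3, 0 genes of this list passed on the reads. Some markers of smooth muscle and stroma, picked after their values were seen, had FPKM fold changes of like size. On the log2 scale these were -0.53 for Acta2, -0.50 for Cald1, -0.44 for Tagln, -0.48 for Dcn and -0.43 for Pdgfra. Others of the same lists did not, with 0.21 for Actg2, -0.01 for Myl9 and 0.15 for Fbln1. Of the tested genes 11 of 12 smooth muscle and 7 of 8 stromal markers lay below 0. The part of these cell types in the value of Flna was not tested. Of 24 names for the IFT-B complex, to which IFT25 belongs, 16 were tested, 10 above 0 and 6 below, with a median of 0.03, and 0 passed in either fit. Ift22 and Ift172 had log2 fold changes of 0.22 and 0.13. Ift27, the direct partner of IFT25 and picked after its values were seen, stood at 28.5 ± 0.453 in sedentary and 25.4 ± 0.956 FPKM in control testes (SD, n = 3), with a limma adjusted p of 0.274.

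**Figure D5:**
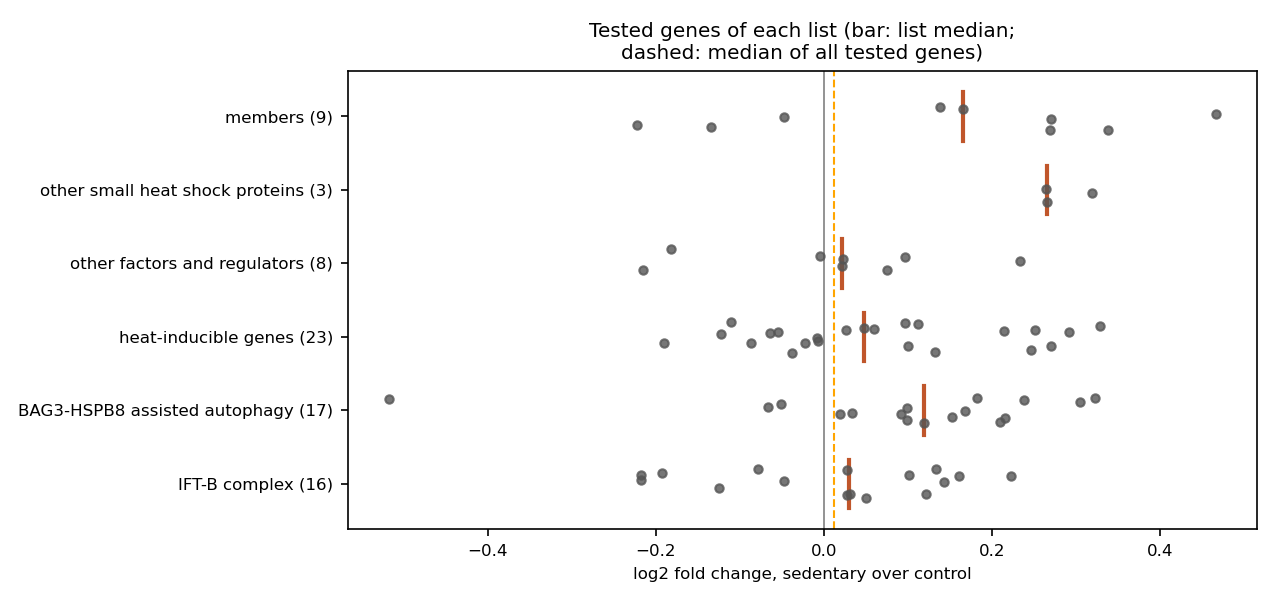
Log2 fold change, sedentary over control, of the tested genes of each list, with the number tested in parentheses; red bars are list medians and the dashed line is the median of all tested genes. The heat-inducible genes scatter around 0, and the gene farthest below 0 is Flna of the autophagy list.

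The tissue and its cell types were checked by their markers. The most abundant germ cell markers, Tnp2 and Prm1, were high in both groups. Tnp2 stood at 8827 ± 834 in sedentary and 6583 ± 778 FPKM in control testes, and Prm1 at 8120 ± 468 in sedentary and 7039 ± 666 FPKM in control testes (SD, n = 3). The summed markers of elongating spermatids ranged from 29544 to 31998 FPKM in sedentary and from 23067 to 27302 FPKM in control testes, with 9 of 10 tested genes above 0 in fold change. The Sertoli cell markers ranged from 891 to 1038 in sedentary and from 715 to 793 FPKM in control testes, with 14 of 14 above 0. The stromal markers ranged from 34.0 to 42.3 in sedentary and from 44.6 to 67.0 FPKM in control testes, with 7 of 8 below 0. Of 12 lists 7 had an exact two-sided permutation p of 0.1, the smallest possible, and 0.171 adjusted over the 12. Besides these 3 they were round spermatids, spermatogonia and epididymis, with higher sums, and endothelial cells, with a lower sum. The round spermatid sum was mostly Pgam2, at 1077 in sedentary and 868 FPKM in control testes. In fold change 5 of 10 round spermatid and 6 of 10 spermatogonia markers lay above 0. The epididymis sum was low, at 1.60 in sedentary and 1.14 FPKM in control testes. Only 1 of its 10 genes and 3 of the 8 endothelial genes were tested. Single markers passed on the reads by voom, where 0.318% of all tested genes passed higher and 1.12% lower. Higher were Amhr2 and Cst9 of the Sertoli list (adjusted p = 0.0224 and 0.0460) and Tnp2 and Prm2 of the elongating spermatid list (0.0277 and 0.0389). Lower were Pdgfra and Col3a1 of the stromal list (0.0329 and 0.0460), Cald1 of the smooth muscle list (0.0245) and Star of the Leydig list (0.0148). On FPKM 0 of these passed by limma. The smooth muscle list had 11 of 12 tested genes below 0, with a median log2 fold change of -0.32, while its sum, mostly Actg2, ranged from 300.0 to 339 in sedentary and from 301 to 318 FPKM in control testes (exact permutation p = 0.4). Striated muscle markers summed to between 6.20 and 8.25 in sedentary and between 6.10 and 7.48 FPKM in control testes. Of the elongating spermatid, Sertoli, stromal, smooth muscle and striated muscle lists 0 genes were at 0 in all libraries. Of the epididymis list 2 were. The part of these cell types in the values of the heat shock genes and of the other lists was not tested.

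By the Pearson correlation of log2(FPKM + 0.5) over the 6 libraries, among 8481 tested genes of at least 5 FPKM on average, the genes most like Hspb1, the tested member with the highest fold change, were Sorbs3, Tymp and Loxl1, with coefficients of 0.9986, 0.9941 and 0.9937. Those most like Hsf2, with the lowest, were Dnm1l, Zfp317 and Wdr26, with coefficients of 0.997, 0.993 and 0.987. The best match of each tested member had a coefficient between 0.9695 and 0.9992. The points share libraries, depth and the GC trend, so the names are a description only.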

How the data were processed

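The values deposited by the authors are FPKM per gene model of a C57BL/6NJ annotation, in 1 column per library, beside each model's length. HISAT2, StringTie and DESeq2 are the tools, and mm10 and mm39 the builds, that the submitters' processing notes give for the authors' work, without versions or roles. Multiplying FPKM by length gave whole steps (tolerance 0.001) in 100% of values, hence the recovered reads. They carry no molecular identifiers and are not independent molecules.

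Fits used limma 3.58.1 in R 4.3.3. They were also run on simulated reads with the same spread for all genes and no GC trend. That setting is simpler than these data, so it does not show how the fits perform on them. Library sizes for voom were those implied by the FPKM values. They lay below the summed reads in every sedentary library (33356449, 37813015 and 33887886, against 34984951, 38148228 and 34176662). In control replicates 1 and 3 they lay above them (39204250 and 33168513, against 37654913 and 31432613). Control replicate 2 had 28495483 against 28495596. The median voom log2 fold change of all tested genes was 0.014 with the implied sizes and -0.063 with summed reads. GC content is that of a symbol's longest GENCODE M21 transcript. Every pair of replicates differed beyond sampling noise. Sedentary and control libraries of the same number had deviations correlated at -0.0674, -0.0875 and -0.0346, so the numbers do not pair them. Named were all 10 members and, of each pathway list, genes past the threshold in either fit or else the 2 most abundant, and others marked as picked later. Cell type markers were outside this rule: those named are the most abundant of a list, those past the threshold on the reads, or chosen after their values were seen. The members and lists were chosen with earlier results of these data known. Alternatives were other pseudocounts, filters and scalings, array weights, a replicate block, trend removal, voom and leaving out each library. The group with physical activity as compensation was not analysed here.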

Additional observations from a re-analysis of the deposited data

How the results depend on the processing

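Of the 10 heat shock genes 0 passed the threshold on FPKM under any setting tried. On the reads between 0 and 2 did when 1 library was left out: Hsf1 and Hspb9 without sedentary replicate 2, and Hspb9 without control replicate 2. All directions held in the settings tried except that of Hspb11, which was 0.012 on FPKM and 0.014 on the reads, on the log2 scale, without control replicate 3. Over the libraries left out it ranged from -0.11 to 0.012 on FPKM and from -0.12 to 0.014 on the reads. Of the 9 tested members 4 had groups apart as deposited and 2, Hsf1 and Hspb1, under quantile normalization. The share of all tested genes with groups apart was not counted under that normalization. Over all genes limma on FPKM called 5 genes. It called 1 without a filter, 3 at a filter of 1 FPKM, 0 with the replicate number as a block, 16 with array weights and 0 once GC and length trends were removed. Voom called 277, and 429 with summed reads, 381 with the replicate block and 168 without a filter. Over genes with a GC value it called 125, and 54 in a separate fit once trends were removed. Leaving out 1 library gave between 0 and 1058 calls, on the reads 50, 779 and 22 without sedentary replicate 1, 2 or 3, and 76, 1058 and 42 without control replicate 1, 2 or 3. With the replicate block 0 members passed in either fit. In the autophagy list 1 gene passed in each voom fit on all 6 libraries, and between 0 and 3 with 1 library left out, while the heat-inducible list and the other small heat shock proteins gave between 0 and 1. FPKM divided by the library sum moved the median of all tested genes by -0.098 on the log2 scale. The difference of the marker sums, sedentary minus control, was then -12.1 for smooth muscle, -0.147 for striated muscle and -118.5 for spermatocytes. The round spermatid and spermatogonia sums then overlapped between the groups (exact permutation p = 0.2 and 0.4). Those of Sertoli cells, elongating spermatids, stroma, endothelium and epididymis stayed apart. Library sums of FPKM ran from 423614 to 434757 in sedentary and from 385759 to 413388 in control testes. With the 2-unit in place of the 3-unit motif, 5 promoters of members matched. The causes were not tested. At 10 to 39 reads per library, Hspb8 and the Hspb1 model are limited by depth.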
